A study of Homo sapiens with 2 samples.

Results

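The 10 genes described here encode proteins that activated B cells carry on their surface to bind other lymphocytes and soluble ligands: FCER2, CD48, CD58, CD80, CD83, CD86, CD70, CD27, ICAM1 and SLAMF1. They were taken by gene name from the deposited table of transcript models, and all 10 were present. They are 10 of the 16645 annotated genes with a read and hold 481 of the 237608 transcript models. The RNA came from GM12878, an untreated human B-lymphoblastoid line made by Epstein-Barr virus transformation, and was read as native RNA strands on nanopores in 2 libraries, replicates 1 and 2 of 1 group. No second cell line, treatment or time point is labelled, so every test below compares the libraries with each other. The labels do not say that the libraries came from separate cultures, so the spread between them may be technical.

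Resting B cells carry little CD80, and contact with T cells or antigen raises the costimulatory and adhesion proteins together. Epstein-Barr virus transformation is known to raise the same set: the viral membrane protein LMP1 signals much like the receptor CD40 through NF-kB, and the viral nuclear protein EBNA2 acts through the DNA-binding factor RBPJ, with FCER2 as a classic target. CD80 and CD86 bind CD28 and CTLA4 on T cells, CD70 binds CD27, CD48 and CD58 bind receptors of the CD2 family, SLAMF1 binds itself, and ICAM1 binds the integrin LFA-1, a dimer of ITGAL and ITGB2.

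Replicate 1 held 1360368 reads and replicate 2 held 1510998, and the 10 genes took 3052 reads (0.224%) and 3585 reads (0.237%) of them. Levels are given in CPM, the reads of a gene scaled to the total reads of its library, and 1 read is worth 0.735 CPM in replicate 1 and 0.662 in replicate 2. In direct RNA sequencing 1 read comes from 1 strand whatever its length, so CPM was not divided by transcript length. The labelled cell type was checked against marker genes. All 6 B cell markers had reads, with a summed level of 1322 and 1355 CPM. Of 17 markers of T cells, NK cells, monocytes and erythroid cells, 11 had no read in either library, among them CD3D, CD4, NCAM1, LYZ and HBB, and the highest of the rest was NKG7 with 25.1 CPM ± 0.878 (SD, n = 2).

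The sequences that tell the leading isoforms apart are short. FCER2 has known models from an upstream start (FCER2-201 and FCER2-205, at 7702146 and 7702111 on the minus strand of chromosome 19, GRCh38) and from a start 2667 bases downstream of FCER2-201 (FCER2-202, at 7699479). FCER2-201 and FCER2-205 hold the same coding sequence of 321 codons before the stop, and FCER2-202 holds 320. The first 60 coding bases, from the GENCODE transcripts, are shown because they hold the whole coding difference between the starts. Capitals mark bases that are not coding in the other model.
FCER2-201: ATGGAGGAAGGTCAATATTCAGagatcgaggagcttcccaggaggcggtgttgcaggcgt
FCER2-202: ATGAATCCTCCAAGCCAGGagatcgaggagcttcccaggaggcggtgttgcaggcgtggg

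CD86 also has 2 starts. CD86-202 codes for 329 amino acids and CD86-203, which starts downstream of it, for 323, because the coding sequence of CD86-203 begins at a later ATG. The first 60 coding bases are shown with the bases that CD86-202 adds in capitals.
CD86-202: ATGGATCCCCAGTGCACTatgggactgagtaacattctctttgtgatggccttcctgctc
CD86-203: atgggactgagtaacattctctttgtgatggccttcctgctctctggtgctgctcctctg

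In CD58 the models differ at the other end. CD58-202 has 6 exons and 250 codons, and CD58-201 has 4 exons and 240 codons, with another end to the coding sequence. The last 75 coding bases, the stop codon included, are shown with the bases particular to each model in capitals.
CD58-202: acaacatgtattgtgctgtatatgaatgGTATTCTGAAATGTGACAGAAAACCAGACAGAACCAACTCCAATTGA
CD58-201: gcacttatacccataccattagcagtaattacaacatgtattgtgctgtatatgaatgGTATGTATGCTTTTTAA

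FCER2 was the most abundant of the 10 genes, and the levels spanned 15.8-fold from FCER2 to CD80. FCER2 (CD23, the low-affinity IgE receptor, ENSG00000104921, chromosome 19, 7688758 to 7702146, minus strand) had 1045 reads (768 CPM) in replicate 1 and 1011 reads (669 CPM) in replicate 2, a mean of 719 CPM ± 70.1 (SD, n = 2). It ranked 184th among the 16645 genes. Its level lay above that of every other member in both libraries. CD48 (chromosome 1, 160678746 to 160711851), a lipid-anchored ligand of CD2 and CD244, came next with 380 and 508 CPM in replicates 1 and 2 (444 ± 90.7), followed by CD70 (chromosome 19, 6583183 to 6604103), a ligand of the TNF family, with 318 and 412 CPM (365 ± 66.0). The values of CD48 and CD70 overlapped between libraries, and so did those of CD27 and SLAMF1. CD27 (chromosome 12, 6444867 to 6451718), the receptor of CD70, had 227 and 197 CPM (212 ± 21.2), and SLAMF1 (chromosome 1, 160608100 to 160647295), the self-ligand CD150, had 188 and 208 CPM (198 ± 14.3). CD83 (chromosome 6, 14117256 to 14136918), a surface protein of mature antigen-presenting cells, had 112 and 139.6 CPM (126 ± 19.2), below SLAMF1 in both libraries.

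The lowest 4 genes were ICAM1, CD58, CD86 and CD80. ICAM1 (chromosome 19, 10270835 to 10286615) had 79.4 and 87.4 CPM (83.4 ± 5.64), and CD58 (chromosome 1, 116514535 to 116571039), the ligand of CD2 also called LFA-3, had 83.1 and 52.9 CPM (68.0 ± 21.3). CD86 (chromosome 3, 122055366 to 122121139) had 39.7 and 54.3 CPM (47.0 ± 10.3), and CD80 (chromosome 3, 119524293 to 119559602) had 47.0 and 43.7 CPM (45.4 ± 2.38). Both encode ligands of CD28. Each of these 4 overlapped its neighbour in the order. Even CD80 stood at the 81.4th percentile of the annotated genes with a read, whose median level was 8.23 CPM. CD80 and CD86 changed places between the libraries: there were 0.844 CD86 reads per CD80 read in replicate 1 and 1.24 in replicate 2. CD70 had 1.40 reads per read of its receptor CD27 in replicate 1 and 2.09 in replicate 2. These ratios were not tested. The order depended on which reads were counted: with known models alone CD48 (557 CPM of known reads), CD70 (529) and FCER2 (507) led in that order.

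**Figure D1:**
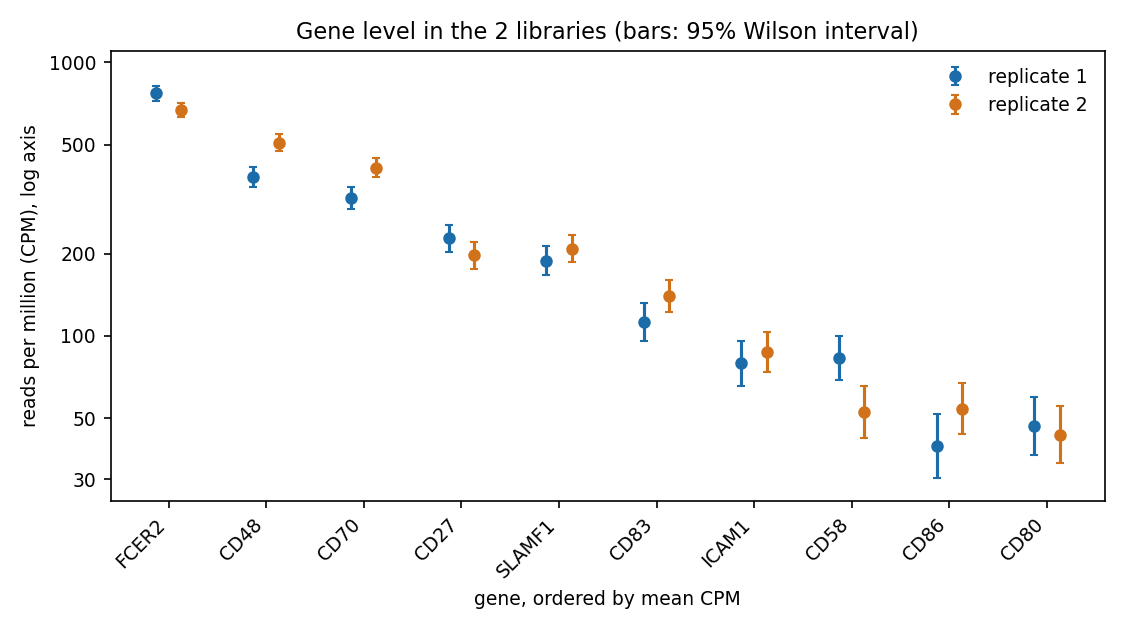
Level of each gene in CPM (vertical log axis) in replicate 1 (blue) and replicate 2 (orange), with 95% Wilson intervals that cover counting error only. FCER2 lies highest at 768 and 669 CPM, and CD86 and CD80 lie lowest, between 39.7 and 54.3 CPM.

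Between the libraries, 4 of the 10 genes differed and all 10 stayed within a log2 ratio of 1. The exact binomial test with Benjamini-Hochberg adjustment over 10634 genes called 5.05% of all genes, and 11% of 3879 genes when only those of 100 reads or more over both libraries were kept, a depth that all 10 genes reach. In such bulk RNA, fewer cells with a transcript and less of it per cell cannot be told apart. CD48 had 517 reads (380 CPM) in replicate 1 and 768 reads (508 CPM) in replicate 2. It was 1.34-fold higher in replicate 2 (95% exact interval 1.19 to 1.50, adjusted p = 2.19e-05, exact binomial test). CD70 had 433 reads (318 CPM) and 622 reads (412 CPM), 1.29-fold higher in replicate 2 (1.14 to 1.47, adjusted p = 0.00187, exact binomial test). Both were higher in replicate 2 by more than counting error.

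FCER2 and CD58 went the other way. FCER2 was 0.871-fold the level of replicate 1 in replicate 2 (0.798 to 0.951, adjusted p = 0.0392, exact binomial test), and its call was lost with DESeq2 size factors (adjusted p = 0.0546). CD58 had 113 reads (83.1 CPM) and 80 reads (52.9 CPM), a ratio of 0.637 (0.473 to 0.856, adjusted p = 0.0405, exact binomial test). Both calls were lost when genes of any read number were tested (adjusted p = 0.0612 for FCER2 and 0.0633 for CD58, exact binomial test), and that of CD58 also without genomic models (adjusted p = 0.157, exact binomial test). The other 6 genes did not pass the threshold, with log2 ratios from -0.20 for CD27 to 0.45 for CD86. The interval for CD86, with 54 and 82 reads, ran from 0.958 to 1.96-fold. The median log2 ratio was 0.14 over the 10 genes and 0.01 over all genes tested.

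**Figure D2:**
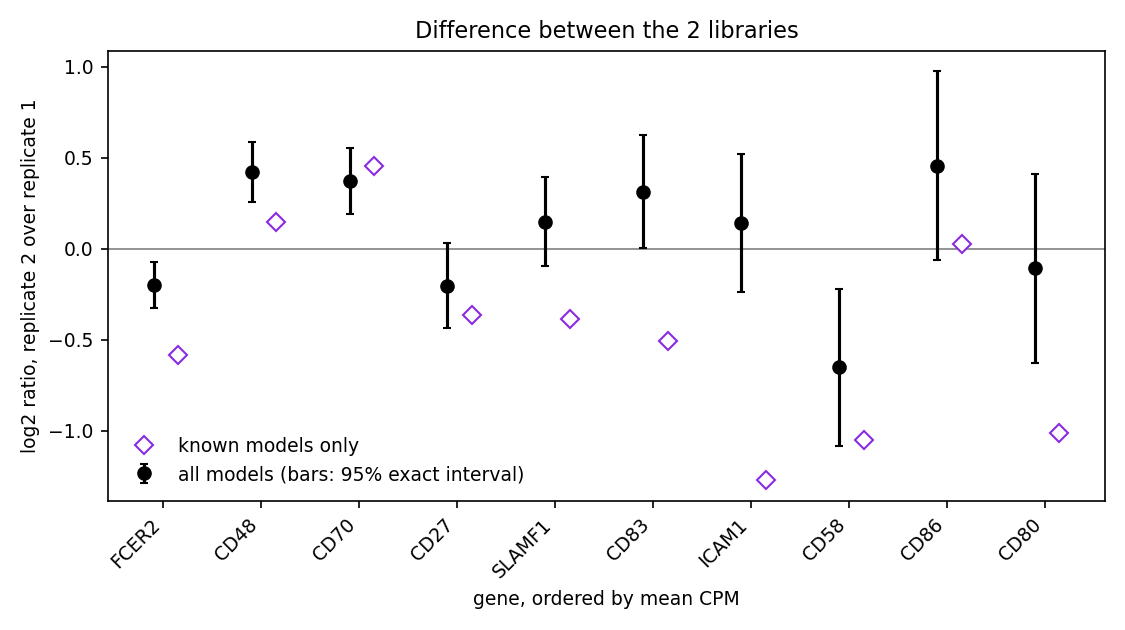
Log2 ratio of replicate 2 over replicate 1 for each gene, from all its reads (black, with 95% exact intervals for counting error) and from reads in known models scaled to the known reads of each library (open diamonds). With all reads CD48 and CD70 lie above 0 and FCER2 and CD58 below it with intervals that do not reach 0; ICAM1, CD83 and SLAMF1 lie above 0 with all reads and below it with known models only.

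The kinds of transcript model that the reads fell in also differed between the libraries. Reads with all the splice junctions of an annotated transcript are listed as known. Those with only some consecutive junctions are incomplete splice matches (ISM), of which the suffix subtype keeps the 3′ end. Some models of 1 exon are also listed as ISM. NIC models combine annotated splice sites differently, NNC models use an unannotated splice site, and genomic models lie in a gene but fit none of its splice patterns. The share of reads in known models was lower in replicate 2 in all 10 genes, and 9 passed Fisher's exact test with Benjamini-Hochberg adjustment. That test called 20.1% of 8265 genes, 19.9% lower and 0.23% higher in replicate 2. Among the deeper genes, those of 100 reads or more, it called 37.4% lower. Called or not, 73.4% of all genes tested had a lower known share in replicate 2. The median difference was -17.98 percentage points over the 10 genes and -7.51 over all genes tested. Only 7386 of the 8265 genes had a known model. The others have a known share of 0% in both libraries and could be neither lower nor called, which makes these background values smaller in size. The median difference was -5.30 points where the known model with the most reads was under 1500 bases (2090 genes). It was -10.86 points where that model had 1500 bases or more (5296 genes). The known share of the whole library also differed, 55.9% in replicate 1 and 45.9% in replicate 2. ISM reads were 23.8% and 31.9% of the whole library, and genomic reads 11.0% and 15.3%. The part of these library-wide differences in the values of single genes was not tested.

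CD48 had the lowest adjusted p of the 10 genes. Its known models had 402 of 517 reads in replicate 1, 77.8% (95% Wilson interval 74.0 to 81.1%), and 406 of 768 reads in replicate 2, 52.9% (49.3 to 56.4%). The difference of -24.9 percentage points had an adjusted p of 3.58e-18 (Fisher's exact test). Its ISM suffix reads were 80 and 276 and its genomic reads 14 and 55, so most of the additional CD48 reads of replicate 2 were in incomplete and genomic models. The ISM and genomic shares of the whole library were also higher in replicate 2. Counting known models only, CD48 no longer passed the test of level (log2 ratio 0.15, adjusted p = 0.347, exact binomial test). The typical gene was itself lower under that count, at a median log2 ratio of -0.26. From all reads CD48 had a log2 ratio of 0.42, and the median gene 0.01. CD48 thus lay above the median gene under both counts. Its distance from these medians was not tested. CD70 kept its call: its known reads were 339 and 424, and with known models only CD70 remained higher in replicate 2 (log2 ratio 0.46, adjusted p = 0.000234, exact binomial test). The known share of CD70 was 78.3% and 68.2% (adjusted p = 0.00345, Fisher's exact test).

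FCER2 had 463 known reads in replicate 1, 44.3% (41.3 to 47.3%), and 281 in replicate 2, 27.8% (25.1 to 30.6%), with an adjusted p of 4.68e-13 (Fisher's exact test). CD27 had 76.4% and 56.0% known reads, a difference of -20.3 percentage points (adjusted p = 3.45e-06, Fisher's exact test). The difference was -19.4 points for ICAM1, with 30 known reads of 108 and 11 of 132. CD58 had a difference of -21.1 points, CD80 -22.4, CD83 -16.5 and SLAMF1 -11.7, all past the threshold with adjusted p from 0.00129 for ICAM1 to 0.0330 for CD80 (Fisher's exact test). CD86 alone did not pass, with 13 known reads of 54 (24.1%) and 12 of 82 (14.6%; adjusted p = 0.424, Fisher's exact test). With genomic reads left out of the total, CD80, CD83 and SLAMF1 missed the threshold (adjusted p = 0.132, 0.252 and 0.0807, Fisher's exact test) on fewer reads, while their differences were much as before at -22.5, -15.9 and -12.3 points.

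**Figure D3:**
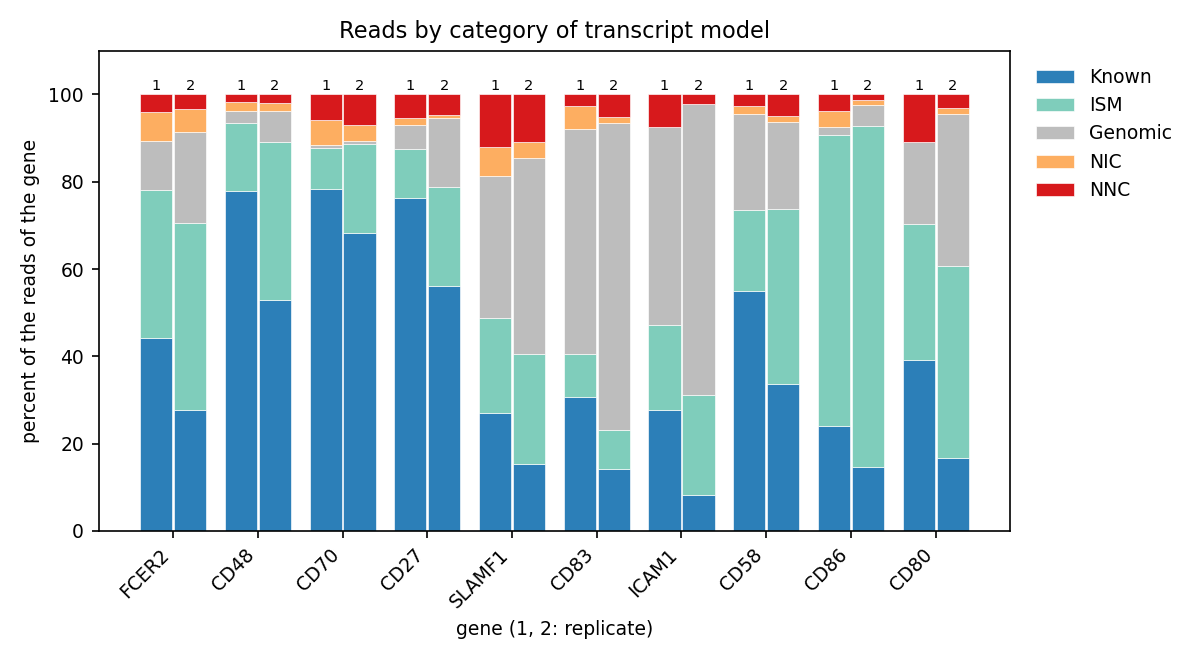
Share of the reads of each gene (vertical axis, percent) by category of transcript model, with replicate 1 as the left and replicate 2 as the right bar of each gene. The known part is smaller in replicate 2 in all 10 genes, and the grey genomic part reaches 70.1% in CD83 and 66.7% in ICAM1.

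The genes differed in which category stood in place of the known models. Over the whole library, genomic reads were 11.0% in replicate 1 and 15.3% in replicate 2. In CD83 and ICAM1 a single genomic model, named here after its values were seen, had more reads than all known models of the gene together in both libraries. In CD83, whose protein is a marker of mature dendritic cells and of activated B cells, the 1-exon genomic model ENCODEHT000549906 took 79 of 153 reads (51.6%) and 148 of 211 reads (70.1%). It is listed at 3160 bases, longer than the longest annotated exon of the gene, 1811 bases. In ICAM1 the 1-exon genomic model ENCODEHT000355968 took 49 reads (45.4%) and 88 reads (66.7%), and it is listed at 3334 bases against a longest annotated exon of 1501. A model of 1 exon and such a length must hold sequence that is spliced out of the annotated transcripts or lies beyond their exons. The length is listed per model and not per read. How many reads of these models hold such sequence was therefore not tested. The genomic model with the most reads was also longer than any annotated exon in 4 other genes. These were CD80 (1543 bases, 12 and 21 reads), CD58 (2131 bases, 12 and 7), CD27 (609 bases, 17 and 45) and CD70 (1017 bases, 1 and 4). In CD58, CD27 and CD70 it had fewer reads than the leading known model in both libraries, and in CD80 in replicate 1 only. Genes overlap several members on the other strand: AC011511.2 had 0 and 2 reads within ICAM1, and TIMMDC1, which overlaps CD80 by 798 bases, had 55 and 56. The level of CD83, ICAM1 and SLAMF1 did not pass the test with all reads (log2 ratios of 0.31, 0.14 and 0.15) or without genomic models (-0.31, -0.50 and -0.07, where the median of all genes was -0.08). With known models only, where the median was -0.26, ICAM1 passed it as lower in replicate 2 (log2 ratio -1.27, adjusted p = 0.0435, exact binomial test), and CD83 and SLAMF1 did not.

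In CD86 a model of last-exon length had the most reads. The ISM model ENCODEHT000466449 has 1 exon of 1699 bases, the same length as the last exon of CD86-202, and took 25 of 54 reads (46.3%, 33.7 to 59.4%) in replicate 1 and 36 of 82 (43.9%, 33.7 to 54.7%) in replicate 2. The intervals of the libraries overlap. CD70 had a model of the same kind. ENCODEHT000337158 has 1 exon of 567 bases, the length of the last exon of CD70-201, with 33 reads (7.62%) and 100 reads (16.1%). Neither of these 1-exon models is listed as suffix. The match is of lengths only, since no positions are given.

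Every gene of the set had reads in suffix models in both libraries, among them ICAM1 (17.6% and 18.2%) and CD86 (16.7% and 25.6%). In FCER2 the suffix models had 276 reads in replicate 1 and 366 in replicate 2, and the leading one, ENCODEHT000341620, kept 3 exons. A 1-exon genomic model of 363 bases, ENCODEHT000341629, held 116 and 210 FCER2 reads. In CD48, the 3-exon suffix model ENCODEHT000607415 had 61 reads (11.8%) and 161 reads (21.0%). In SLAMF1, the longest transcript of the set, the leading genomic model ENCODEHT000606678 had 42 and 47 reads. The genomic share of the gene was 32.4% in replicate 1 and 44.8% in replicate 2.

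Among the 10 genes the known share was lower where the leading known transcript was longer. The 3 genes with the highest known shares in both libraries, CD48, CD70 and CD27, had leading known models of 1126, 913 and 1338 bases. The 3 genes with leading models of 1500 bases or more, CD83 (2471 bases), ICAM1 (3252) and SLAMF1 (4006), had known shares of 30.7%, 27.8% and 27.0% in replicate 1 and of 14.2%, 8.33% and 15.2% in replicate 2. Spearman's rho between length and known share was -0.78 in replicate 1 and -0.82 in replicate 2 over the 10 genes, which share their libraries and are not independent. Over 7386 genes with a known model it was -0.40 and -0.48. CD86, with a leading known model of 1405 bases, lay far below CD27 of similar length. The CD86 model with the most reads, of 1 exon, has the last-exon length of CD86-202, a known model of 2708 bases. The full length of the transcripts behind those reads is not known. All genes with a leading model under 1500 bases had median known shares of 62.0% and 48.4%, and those of 1500 bases or more 28.0% and 13.5%.

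**Figure D4:**
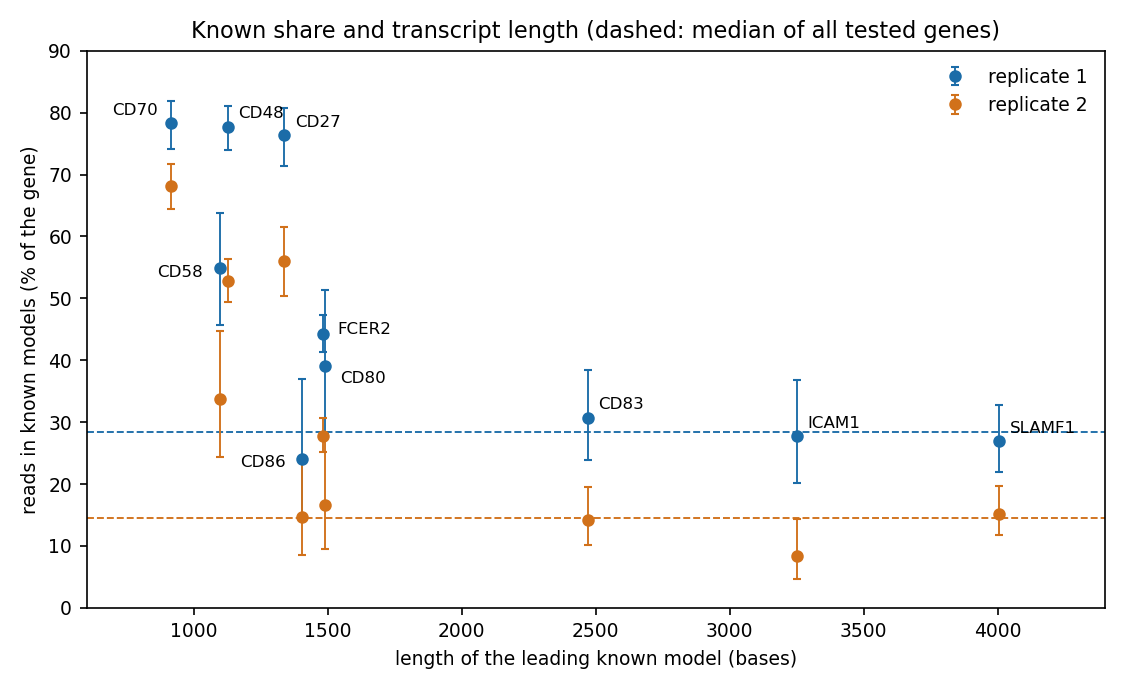
Share of reads in known models (vertical axis, percent, with 95% Wilson intervals) against the length of the known model with the most reads (horizontal axis, bases), in replicate 1 (blue) and replicate 2 (orange); dashed lines are the medians of all 8265 genes tested. CD48, CD70 and CD27 lie highest at short lengths, and CD83, ICAM1 and SLAMF1 lie near the median of 28.4% in replicate 1; in replicate 2 ICAM1, at 8.33%, lies below the median of 14.5%.

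Reads in known models also tell which annotated isoforms were present. Of the 44 annotated models of the 10 genes, 24 had a read. In FCER2 all 3 known models had reads in both libraries, and none dominated. The downstream-start model FCER2-202 had 193 of 463 known reads in replicate 1, 41.7% (37.3 to 46.2%), and 94 of 281 in replicate 2, 33.5% (28.2 to 39.2%). The difference did not pass the test after adjustment over 2675 genes (adjusted p = 0.191, Fisher's exact test), which called 8.9% of them. The upstream-start models FCER2-201 and FCER2-205 had 270 and 187 reads together, 58.3% and 66.5%. They are told apart by the end of their first exon, 4 bases from one to the other, so the assignment of reads between these models is uncertain. Known models of both FCER2 starts thus had reads in both libraries. A known read is defined by its junctions. Whether the FCER2-202 reads reach the first coding bases shown above was not tested.

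Known models of both FCER2 starts had reads, so the 250 bases before each RefSeq start (GRCh38.p14) were searched on both strands for 4 motifs. These were GTGGGAA, bound by RBPJ, the STAT6 motif (TTC and GAA with 4 bases between them), TATAAA, and the NF-kB motif. Matches of the NF-kB motif can overlap each other. RefSeq windows were found for 9 of the 10 genes, 12 windows in all. The window of the upstream FCER2 start held GTGGGAA once, 187 bases before the start, and was the only one of the 12 with this motif, which 5.43% of 35116 windows hold. The NF-kB motif was taken as GGG, then A or G, any 2 bases, 2 bases that are C or T, and CC. Other forms of it were not searched. The window of the downstream FCER2 start held this motif once, 222 bases before the start, as 9.96% of all windows and 3 of the 12 do. The others of the 3 were a window of CD86 and a window of CD83. The STAT6 motif was in 2 of the 12 windows (SLAMF1 and CD83; 5.38% of all windows) and TATAAA in 2 (ICAM1 and CD83; 10.7% of all). A match is a string of letters and not a site shown to be bound. The first 200 bases of the FCER2 windows, chr19:7702182-7702381 and chr19:7699492-7699691 on the minus strand, are shown with the matches in capitals.
FCER2 upstream start: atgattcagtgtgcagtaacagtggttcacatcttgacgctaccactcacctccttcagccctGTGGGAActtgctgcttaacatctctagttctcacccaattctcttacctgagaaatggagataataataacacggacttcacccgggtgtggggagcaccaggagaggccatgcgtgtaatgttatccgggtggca
FCER2 downstream start: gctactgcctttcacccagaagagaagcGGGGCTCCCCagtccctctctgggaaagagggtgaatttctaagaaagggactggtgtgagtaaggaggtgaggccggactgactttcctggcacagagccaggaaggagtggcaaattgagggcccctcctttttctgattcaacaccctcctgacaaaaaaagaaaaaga

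CD27 was the 1 gene of 8 tested whose leading known model differed in share between the libraries, where 8.9% of all genes tested did, 208 of those 238 genes with a lower share in replicate 2. CD27-201, the coding model of 6 exons and 260 codons, had 227 of 236 known reads (96.2%, 92.9 to 98.0%) in replicate 1 and 147 of 167 (88.0%, 82.2 to 92.1%) in replicate 2, with an adjusted p of 0.0343 (Fisher's exact test). The rest were 9 and 20 reads of CD27-202, a shorter model of 5 exons without an annotated coding sequence. An antisense gene, CD27-AS1, overlaps nearly the whole of CD27 and had 8 and 13 reads.

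CD48-202, the coding model of 4 exons, had 400 of 402 and 394 of 406 known reads of CD48. CD48-201, a model of 2 exons and 1793 bases with 169 codons against 243 in CD48-202, had 0 reads in replicate 1, which allows up to 0.580% of the reads of the gene, and 10 in replicate 2 (1.30%). The share of CD48-202 did not pass the test (adjusted p = 0.104, Fisher's exact test). CD70-201 held 336 of 339 and all 424 known reads of CD70, and SLAMF1-202 57 of 69 and 41 of 48 of SLAMF1. The retained-intron model SLAMF1-203 had 11 and 6 reads. CD83 and ICAM1 each had reads in only 1 known model, CD83-201 and ICAM1-201.

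Known models with each of the 2 coding ends of CD58 had reads in both libraries. CD58-202 had 36 of 62 and 17 of 27 known reads, and CD58-201 had 23 (37.1%, 26.2 to 49.5%) and 10 (37.0%, 21.5 to 55.8%). The share of CD58-202 did not pass the test (adjusted p of 1, Fisher's exact test), and its intervals at this depth are wide. In CD86, CD86-203 from the downstream start had 12 of 13 and 9 of 12 known reads, and CD86-202 had 1 and 2. In CD80, CD80-204 had 22 of 25 and 7 of 11 known reads, and CD80-201, with the same coding sequence of 288 codons and a longer 3′ part, had 3 and 3. With 11 to 25 known reads in CD86 and CD80, the Wilson intervals of these shares are wide, 35.4 to 84.8% for CD80-204 in replicate 2. The shares count known reads only, and CD86-202 (2708 bases) and CD80-201 (2725) are longer than CD86-203 (1405) and CD80-204 (1491). The 1-exon CD86 model with the last-exon length of CD86-202 had 25 and 36 reads, more than all known CD86 reads. Which isoform of CD86 or CD80 was the more abundant over all reads was not tested.

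**Figure D5:**
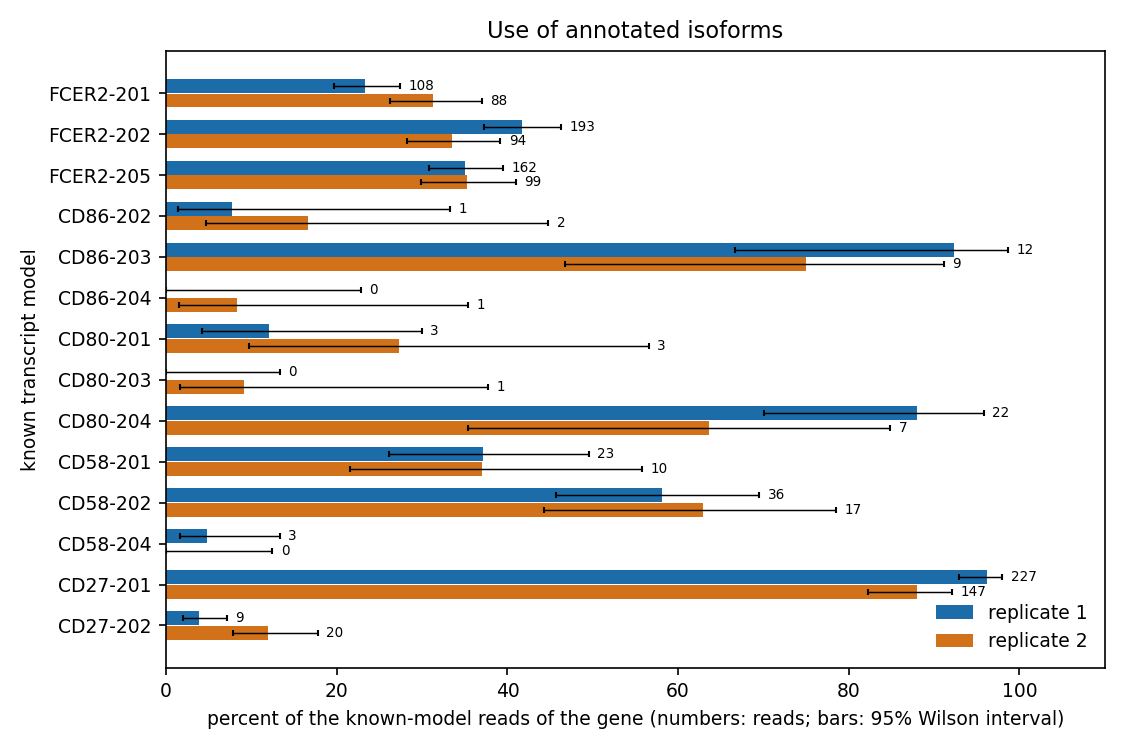
Share of the known-model reads of a gene (horizontal axis, percent, with 95% Wilson intervals) taken by each known model of FCER2, CD86, CD80, CD58 and CD27 in replicate 1 (blue) and replicate 2 (orange); numbers are reads. The 3 FCER2 models take between 23.3% and 41.7% each, while CD27-201 takes 96.2% and 88.0%.

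Unannotated splicing was spread thinly. The 10 genes had 250 NIC and NNC models, of which 173 rested on a single read and 51 were read in both libraries. FCER2 held 115 of the 250, with ENCODEHT000341686 (NNC, 11 exons) leading at 15 and 9 reads. CD70 had the 2-exon NIC model ENCODEHT000337135 of 1303 bases, with 18 reads (4.16%) and 14 reads (2.25%), and the NNC model ENCODEHT000337217 with 10 reads in each library. In SLAMF1 the NNC model ENCODEHT000607352 had 8 and 9 reads. CD86 had no NIC or NNC model with a read in each library.

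The binding partners and relatives of these proteins were followed in a list of 31 genes, of which 22 had reads in both libraries. The 5 highest were ICAM3, an adhesion molecule related to ICAM1, with 176 CPM ± 32.2 (SD, n = 2), CD40, the receptor of the T cell ligand CD40LG, with 174 CPM ± 4.31, SLAMF7 with 162 CPM ± 50.4, TNFRSF8 (CD30) with 159 CPM ± 23.6 and ITGB2, the beta chain of LFA-1, with 139 CPM ± 29.6. All 5 lay below the mean of SLAMF1 and above that of CD83. The T cell and NK cell partners CD28, CTLA4, CD244, CD40LG, SH2D1A and SH2D1B had no read in either library, nor had ICAM5, SLAMF8 and TNFSF8, and a count of 0 leaves room for levels of at most 2.21 CPM (replicate 1) and 1.99 CPM (replicate 2). CD2, a receptor of CD58 and CD48, had 3 and 10 reads (4.41 CPM ± 3.12). Both CD27 and its ligand CD70 were read in these libraries, as were ICAM1 and the LFA-1 chains ITGAL (79.2 CPM ± 4.96) and ITGB2.

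Of the 19 partners tested, 1 was higher and 1 lower in replicate 2, against 2.72% and 2.33% of all genes. CR2 (CD21, the complement receptor that Epstein-Barr virus binds and a ligand of FCER2) had 45 reads (33.1 CPM) and 100 reads (66.2 CPM), a log2 ratio of 0.99 (adjusted p = 0.00322, exact binomial test). SLAMF7 had 269 and 191 reads, a log2 ratio of -0.64 (adjusted p = 0.000150, exact binomial test). The median log2 ratio of the tested partners was 0.13. Their known share was lower in replicate 2 in 13 of 14 genes and passed the test in 6, ICAM3, CD40, SLAMF7, TNFRSF8, TNFSF9 and ICAM2, all of them lower. Among all genes tested, those without a known model included, 19.9% were called lower, or 37.4% of those of 100 reads or more.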

How the data were processed

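Direct RNA libraries of GM12878 (RNA002 chemistry, per the labels) were available as 1 deposited table of raw read counts per transcript model, with no normalization by the authors; each model's exon number and length are other properties the authors deposited beside the counts. The submitters' processing notes name minimap2 and hg38, and the table's name TALON; versions and read filters are not given in the sources used here. Columns were matched to samples by title, and the members' known models to GENCODE 29 (GRCh38) by identifier.

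Gene counts were summed over models. Levels were compared by exact binomial tests against the library totals (at least 10 reads over both libraries), known shares and leading known model shares by Fisher's exact tests (at least 10 reads in each library), two-sided, over all annotated genes, with Benjamini-Hochberg adjustment at 0.05 (scipy 1.17.1). Log2 ratios added 0.5 reads. With 1 group, no edgeR contrast exists; edgeR 4.0.16 and DESeq2 1.42.0 gave scaling factors for alternatives. Intervals cover counting error only, at 95%, and a count of 0 allows 3 reads. The tests were checked on counts simulated with counting error only. That check does not cover further variation between libraries or a library-wide difference in known share.

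The text names all members and, per gene, known models with at least 5 reads, the ISM model with the most reads and up to 2 NIC or NNC models read in both libraries; of the partner list, it names the 5 highest, those past a threshold and those without a read. Other features were chosen after their values were seen. The members and lists were chosen with earlier results of these data known. CD70 has no promoter entry in the RefSeq table used.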

Additional observations from a re-analysis of the deposited data

How the results depend on the processing

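No paired analysis was possible because the 2 libraries form 1 group. Leaving out a library gives the other's value, which is in the report, so it says nothing about stability. TMM factors changed no call among the 10 genes, and DESeq2 size factors ended that of FCER2. Without a minimum of reads 2 members differed in level in place of 4. With known models only, 1042 of 5528 genes differed in level (324 higher and 718 lower in replicate 2, median log2 ratio -0.26) in place of 537 of 10634. The log2 ratios of CD83, ICAM1 and SLAMF1 were then -0.51, -1.27 and -0.39 (adjusted p = 0.328, 0.0435 and 0.369, exact binomial test), and -0.31, -0.50 and -0.072 with genomic models left out (median of all genes -0.08), the opposite sign of the ratios from all reads. ICAM1 with known models only was the 1 of these 6 values to pass the threshold. With all models of a gene as the denominator, the leading known model share differed in 1375 of 4801 genes in place of 238 of 2675 and in 6 members in place of 1, and the differences of CD58, CD70 and SLAMF1 became -10.6, -9.43 and -9.25 percentage points. This denominator adds the known share itself to the test. The known share stayed lower in replicate 2 in all 10 genes under the 5 alternatives tried, with 6 to 9 past the threshold. Depth limits CD86 and CD80 most, with 136 and 130 reads in all.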
